A study of Homo sapiens with 6 samples.

Results

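A set of 9 genes whose transcripts lie in or beside duplicated sequence was examined in GM12873, an established human B-lymphoblastoid cell line (B cells immortalized with Epstein-Barr virus). The genes are the noncoding FLJ45445, LOC100133161, LOC100133331, LOC729737, LOC731275, FLJ45340 and LINC00174, together with PKD1 and its pseudogene PKD1P1. They are 9 of 23284 gene symbols in 24934 records. They were chosen by their lower values after lyophilization, so the differences between the groups below are a description of these values. Where a p-value of the fit over all genes is given for them, it is not independent evidence. For LOC100133331, which is listed at 3 loci, the record with the highest mean was used, and the other 2 are described with it.

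The study asked whether freeze-dried cells keep an RNA profile that can be sequenced. The 3 control samples, each of the same number of cells as the treated ones, were lysed in Trizol after washing in PBS. The 3 lyophilized samples of the same line were washed in the same way, freeze-dried in 0.1 M trehalose (a sugar that protects dried membranes and proteins) and kept as powder at room temperature for 2 weeks before lysis. The labels number the samples 1 to 3 within each group. The study describes pairs of a control and a lyophilized sample, and samples of the same number were taken as pairs 1 to 3. All 6 come from 1 cell line and no label says that they came from separate cultures, so p-values measure only the spread between these samples, which may be technical. Poly(A) RNA was sequenced as single 75-base reads. Each sample is given as FPKM (fragments per kilobase of transcript, scaled to the mapped reads of the library). This scale takes transcript length into account. The FPKM of a locus with repeated sequence also depends on how its reads are placed, so the order of these genes by level is only a description. The 6 tables hold no read counts per gene and the read totals of the libraries were not used here. The step sizes of very low FPKM values put the relative depth of the other samples between 1.38 and 1.89 times that of control 1. The 10 B-cell markers were all above 1 FPKM in the mean of at least 1 group, and of 10 markers of other cells only KRT18, an epithelial keratin, reached that level (means of 1.17 and 1.16 FPKM). HBB and ALB, of red cells and liver, were listed at 0 in all 6 samples, and the other 7 had means of at most 0.449 FPKM in both groups.

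PKD1 encodes polycystin-1, a very large membrane protein of primary cilia and cell junctions, and its loss causes autosomal dominant polycystic kidney disease. The upstream part of PKD1 lies in a block of chromosome 16 that was copied to other places on the same chromosome during primate evolution, and these copies include transcribed pseudogenes such as PKD1P1. Subtelomeres, the regions next to chromosome ends, are patchworks of blocks shared between chromosomes, and many carry noncoding transcripts and pseudogenes. A short read from such a block can match several places equally well, so the level of any 1 copy depends on how reads are placed. In RNA from a whole culture, fewer cells with a transcript and less of it per cell cannot be told apart.

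The sequence of the loci shows which of the 9 are copies of one another. All positions are on GRCh37, the build of the files (also named hg19). The noncoding genes other than LINC00174 belong to 1 family. LOC729737 (chromosome 1, 134773 to 140566), LOC100133331 (chromosome 1, 661139 to 665731, called copy B below), LOC100133161 (chromosome 11, 126987 to 131920) and FLJ45445 (chromosome 19, 197016 to 202209) lie close to a chromosome end. An annotated protein-coding gene, AL627309.1, overlaps 77.3% of the LOC729737 locus, so the FPKM of LOC729737 may include reads of that gene. The other LOC100133331 loci are copy A on chromosome 1 (323892 to 328581) and a copy on chromosome 5 (180750507 to 180755196). LOC731275 (chromosome 1, 243219616 to 243265046) and FLJ45340 (chromosome 7, 128281295 to 128301052) are longer loci that hold the family block within other sequence. The longest alignment between copy A and the chromosome 5 copy covered all 4690 bases at 99.9% identity. FLJ45445 and copy B aligned over 1528 bases at 99.1%, and FLJ45340 and LOC731275 over 10933 bases at 97.5%. LINC00174 (chromosome 7, 65841031 to 65865395) aligned over 2340 bases at 85.8% identity to FLJ45340 and over 2343 bases at 86.2% to LOC731275. No alignment was found to FLJ45445, LOC100133161 or a LOC100133331 locus. LINC00174 is therefore not shown to be a relative of the family.

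Each of the 8 family loci lay beside or over a processed pseudogene of CIC, a gene for a transcriptional repressor. CICP27 and CICP14 overlapped LOC729737 and FLJ45340. The pseudogenes CICP3, CICP7, CICP15, CICP23 and CICP19 were 850 to 1421 bases from copy B, copy A, the chromosome 5 copy, LOC100133161 and FLJ45445, and CICP21 was 4695 bases from LOC731275. The annotation holds 27 such pseudogenes. The nearest one to LINC00174 was 2609606 bases away.

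The block that all 8 loci have in common aligned over 1067 columns, of which 66 (6.19%) varied. Its most variable 75-base window, the length of 1 read, is shown because it is where the copies differ most. It is written in 1 common orientation, with capitals for the bases that differ from the majority of the 8 loci. The first line stands for FLJ45445 (chr19:201255-201329, plus strand), LOC100133161 (chr11:130966-131040, plus) and the chromosome 5 copy (chr5:180751387-180751461, minus), which are identical there. The others are copy B (chr1:664777-664851, plus), copy A (chr1:324772-324846, minus), LOC729737 (chr1:139289-139363, plus), FLJ45340 (chr7:128291576-128291650, minus) and LOC731275 (chr1:243220165-243220239, plus).
FLJ45445, LOC100133161 and the chromosome 5 copy: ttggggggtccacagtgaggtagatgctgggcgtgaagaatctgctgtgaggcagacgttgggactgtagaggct
LOC100133331, copy B: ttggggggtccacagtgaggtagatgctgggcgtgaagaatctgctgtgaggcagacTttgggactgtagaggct
LOC100133331, copy A: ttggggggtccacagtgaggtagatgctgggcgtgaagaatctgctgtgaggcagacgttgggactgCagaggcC
LOC729737: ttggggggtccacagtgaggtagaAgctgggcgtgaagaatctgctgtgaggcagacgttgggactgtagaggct
FLJ45340: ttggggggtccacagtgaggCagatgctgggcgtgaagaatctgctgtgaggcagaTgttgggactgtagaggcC
LOC731275: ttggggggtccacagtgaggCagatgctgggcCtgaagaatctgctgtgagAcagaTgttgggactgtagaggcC
Even here the 3 loci of the first line could not be told apart, and their window occurred at 4 other positions each. The window next to it was identical at all 8 loci and occurred at 11 other positions (FLJ45445, chr19:201330-201404, plus strand), so a read from it fits any member of the family.
All 8 loci: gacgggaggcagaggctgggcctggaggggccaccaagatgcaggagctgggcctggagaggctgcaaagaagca

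The loci near chromosome ends also carried a GC-rich tandem repeat with a unit of 97 bases. The unit is shown because it was the same, base for base, in FLJ45445 (chr19:198409-198505, plus strand), LOC100133161, LOC729737 and the chromosome 5 copy, and differed at 1 base (capital) in copy B (chr1:662643-662739, plus) and at 1 base in copy A (chr1:326884-326980, minus).
FLJ45445, LOC100133161, LOC729737 and the chromosome 5 copy: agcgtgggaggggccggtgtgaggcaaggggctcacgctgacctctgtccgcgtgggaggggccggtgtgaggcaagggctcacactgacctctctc
LOC100133331, copy B: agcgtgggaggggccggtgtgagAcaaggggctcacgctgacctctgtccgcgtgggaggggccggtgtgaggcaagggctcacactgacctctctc
LOC100133331, copy A: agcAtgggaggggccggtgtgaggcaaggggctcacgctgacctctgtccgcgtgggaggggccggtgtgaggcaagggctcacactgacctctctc
FLJ45445 held the most copies of the unit, 16 with at most 9 differences. LOC729737 held 5 and LOC100133161 held 4, copy A and the chromosome 5 copy 2 each and copy B 1. LOC731275 and FLJ45340 held none within that limit. LINC00174, which is not near a chromosome end, also had a stretch that repeated at a spacing of 97 bases (chr7:65858793-65859030, 238 bases, 81.5% GC). Its unit was not compared with the one shown.

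The share of each locus that a 75-base read cannot place was measured as the percent of its 75-base stretches that occur again elsewhere in the genome, on either strand. PKD1P1 was the most repeated, at 94.6%. FLJ45445 followed at 91.7%, LOC100133331 (copy B) at 81.8%, LOC100133161 at 79.6% and LOC729737 at 77.7%. LOC731275 at 57.8% and FLJ45340 at 44.4% were intermediate. PKD1 at 25.0% and LINC00174 at 10.6% were mostly single-copy. The label of repeat-embedded genes therefore describes 7 loci better than PKD1 and LINC00174. Counting only annotated exons, available for 6 of the genes, LINC00174 fell to 4.70%, PKD1 to 18.5% and LOC731275 to 49.2%, while PKD1P1 (94.7%), FLJ45445 (92.0%) and LOC100133161 (80.6%) kept close to their locus values. The reads were kept by the study at a single position each, and the chromosome 5 copy of LOC100133331, which has no 75-base stretch of its own (100% elsewhere), still carried FPKM values above 0 in all 6 samples.

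**Figure D1:**
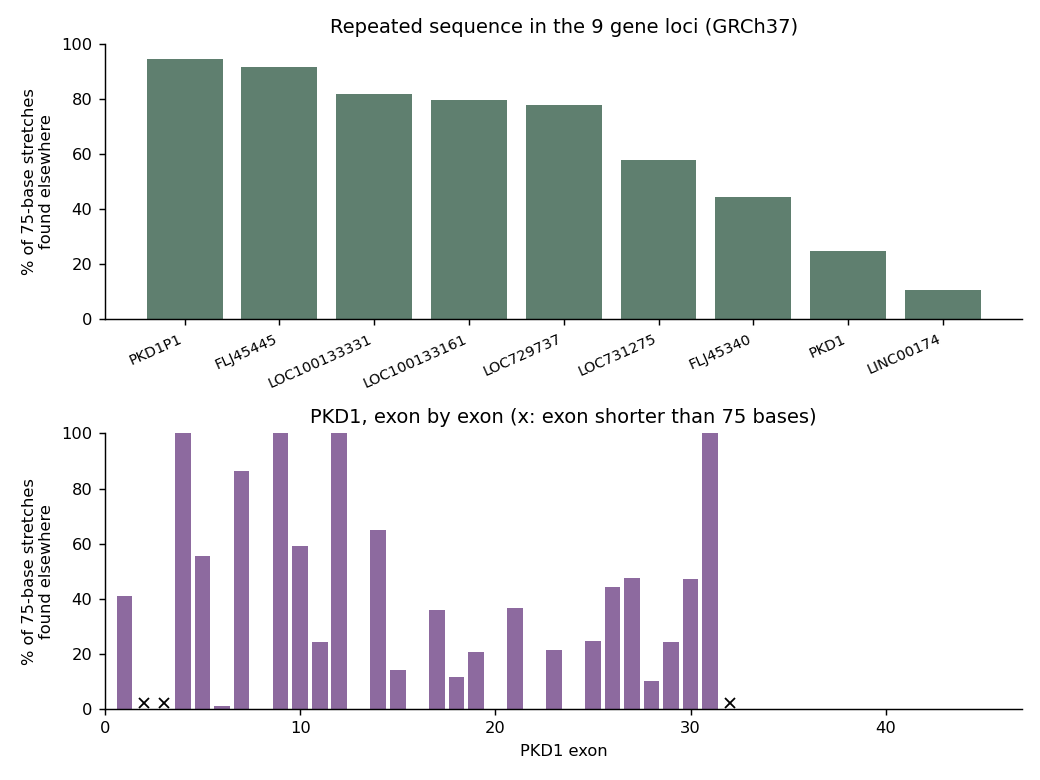
Upper panel: percent of the 75-base stretches of each gene locus that occur elsewhere in GRCh37. Lower panel: the same for the exons of PKD1 in order along the transcript, with crosses for exons too short to hold a stretch. Repeated stretches reach from 94.6% in PKD1P1 to 10.6% in LINC00174, and within PKD1 they end at exon 31.

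PKD1 itself is divided. Of the 46 exons of its full-length transcript (chromosome 16, 2138711 to 2185899 in the files), exons 1 to 31 had 2095 repeated stretches of 8086, or 25.9%. Exons 32 to 46 had 0 of 2673. The record listed as PKD1P1 (chromosome 16, 16411466 to 16444465) aligned to 29.6% of the PKD1 transcript in 16 pieces, with identities from 96.1% to 100%. The annotated PKD1P1 pseudogene, from 16404198 to 16428047, overlaps 50.2% of this record and begins outside it. The regions that held the most copies of PKD1P1 or PKD1 were on chromosome 16, and 1 of them, from 18411776 to 18488396, held 90.3% of the stretches of PKD1P1. Of 2479 aligned exon windows of 75 bases, 550 (22.2%) had no difference between gene and pseudogene, and the median was 2 differences. The window with the most differences, 6, lies in exon 13 and is shown with the differing bases in capitals, PKD1 at chr16:2162866-2162940 on the minus strand and PKD1P1 at chr16:16416509-16416583 on the plus strand.
PKD1: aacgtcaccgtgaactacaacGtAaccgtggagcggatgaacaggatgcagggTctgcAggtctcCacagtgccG
PKD1P1: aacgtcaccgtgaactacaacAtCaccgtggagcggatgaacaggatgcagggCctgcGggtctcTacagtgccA
The PKD1 window occurred nowhere else, whereas that of PKD1P1 occurred at 2 other positions. The PKD1P1 record also covers the annotated protein-coding gene NPIPA9, which overlaps 99.9% of it, so the FPKM listed as PKD1P1 cannot be told apart from that of the nuclear pore-interacting protein gene at the same place.

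PKD1P1 had the highest listed FPKM of the 9 genes in untreated cells. It was 4.42, 4.32 and 4.69 FPKM in controls 1 to 3 and 2.00, 2.39 and 1.93 FPKM in lyophilized samples 1 to 3. PKD1 followed, at 4.33, 3.55 and 4.08 FPKM in the controls, against 1.59, 1.61 and 1.43 FPKM after lyophilization. The control ranges of gene and pseudogene overlapped, and those of the lyophilized samples did not, PKD1P1 lying above PKD1 in all 3. Every lyophilized value of both genes was below every control value. The means were 4.47 ± 0.191 and 2.10 ± 0.245 FPKM for PKD1P1 and 3.99 ± 0.397 and 1.54 ± 0.0980 FPKM for PKD1 (SD, n = 3 each), 2.13 and 2.59 times lower after lyophilization.

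FLJ45340, the FLJ-numbered transcript on chromosome 7 that contains a CIC pseudogene, was the highest of the noncoding genes. Its controls were at 3.82, 3.17 and 3.21 FPKM and its lyophilized samples at 1.07, 1.32 and 1.43 FPKM. LOC731275, with which it shares its longest alignment, was the lowest of the 9. Its controls were at 1.03, 0.980 and 1.08 FPKM and its lyophilized samples at 0.149, 0.340 and 0.250 FPKM, a 4.18-fold difference of the means (1.03 ± 0.0516 against 0.246 ± 0.0956 FPKM, SD, n = 3 each) and the widest of the set. The ranges of these related loci did not overlap in either group.

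The 4 genes near chromosome ends lay between them. LOC100133331 (copy B) was at 2.41, 2.27 and 2.82 FPKM in the controls, against 0.683, 0.910 and 0.964 FPKM after lyophilization. LOC729737 was at 2.32, 2.03 and 2.47 FPKM against 0.652, 0.649 and 0.763 FPKM. LOC100133161 was at 1.71, 1.82 and 1.85 FPKM against 0.516, 0.650 and 0.608 FPKM. These copies were close in level, the control ranges of LOC100133331 and LOC729737 overlapping. FLJ45445, with the longest array of the 97-base repeat, was lower than these 3 at 1.33, 1.23 and 1.28 FPKM in the controls, against 0.405, 0.418 and 0.430 FPKM after lyophilization. Its SD was the smallest of the 9 relative to the mean in both groups, at 1.28 ± 0.0516 FPKM before and 0.418 ± 0.0127 FPKM after the treatment (SD, n = 3 each). The fold differences of the 4 means were 2.93 for LOC100133331, 3.30 for LOC729737, 3.03 for LOC100133161 and 3.06 for FLJ45445. LINC00174, the mostly single-copy gene, was at 1.84, 1.61 and 1.86 FPKM in the controls, against 0.567, 0.754 and 0.646 FPKM after lyophilization, 2.70 times lower in the mean and inside the range of the repeated copies.

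**Figure D2:**
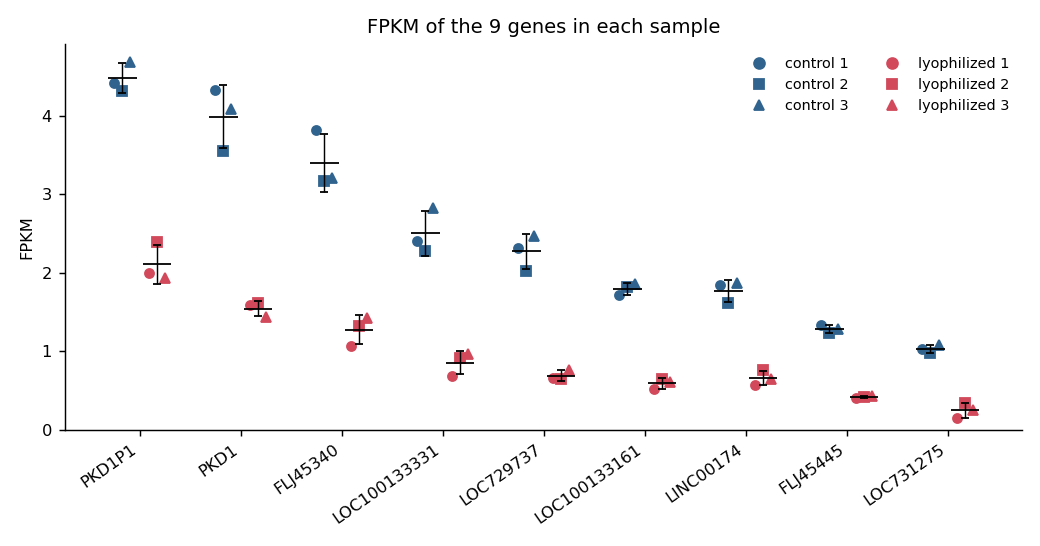
FPKM of the 9 genes in each of the 6 samples (marker shape gives the pair), ordered by the control mean, with bars for the mean and SD of 3 samples. The control and lyophilized samples of every gene are apart, from 4.47 against 2.10 FPKM in PKD1P1 to 1.03 against 0.246 FPKM in LOC731275.

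In the order of the control means, the ranges of neighbours overlapped between PKD1P1 and PKD1, PKD1 and FLJ45340, LOC100133331 and LOC729737, and LOC100133161 and LINC00174, and did not overlap between the other 4 neighbours. On the log2(FPKM + 0.1) scale, on which differences of low genes are understated, the difference of lyophilized minus control ranged from -1.74 in LOC731275 to -1.06 in PKD1P1, with a median of -1.41. All 9 were lower in each of the 3 pairs. The median over the 9 was -1.55 in pair 1, -1.23 in pair 2 and -1.45 in pair 3. Since the genes were selected on this comparison, the following counts carry no weight as evidence: 9 of 9 were lower without overlap of the groups, beside 12.6% of the 11131 tested genes, and 9 of 9 had a log2 difference under -1, beside 0.548%. The latter count depends on the scale: with a pseudocount of 1 it was 0 of 9, the widest difference being -0.97 in PKD1. With the block and a correction for locus GC content it was 8 of 9 (PKD1P1 at -0.84), and with one for transcript GC content 3 of the 5 genes with a value (PKD1 at -0.97 and PKD1P1 at -0.72). By limma on the log2 scale, with Benjamini-Hochberg adjustment, 8 of the 9 were lower with an adjusted p under 0.05, beside 0.557% of tested genes (62 lower and 2 higher). The exception was LOC731275, at 0.0568. None of these calls remained when any 1 of the 6 samples was left out, which left 0 genes called and 878 to 2096 with an unadjusted p under 0.05. With the pair as a block, all 9 did, beside 14.9% (1657 genes lower and 1767 higher). The median log2 difference over the 11131 genes was 0.04. Of the 9, 6 had a lyophilized mean under 1 FPKM and entered the set of tested genes, which needed a mean above 1 FPKM in at least 1 group, through the controls alone. LOC731275, with a control mean of 1.03 FPKM, was the one just inside that limit.

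The 3 loci that carry the name LOC100133331 allowed the same sequence to be followed at different places. At copy A, LOC100133331 was listed at 1.81, 1.11 and 1.97 FPKM in the controls, against 0.138, 0.743 and 0.659 FPKM after lyophilization. A second record, LOC100132062, has the same coordinates and was listed at 0.761, 0.553 and 0.459 FPKM against 0.393, 1.70e-05 and 2.06e-05 FPKM. Where 1 record was high the other was low among the lyophilized samples. The chromosome 5 copy was also listed under 2 names. There LOC100133331 was at 1.59, 0.622 and 2.02 FPKM in the controls, against 0.560, 0.346 and 0.381 FPKM after lyophilization, and LOC100132287 at 0.761, 1.09 and 0.459 FPKM against 1.64e-05, 0.407 and 0.489 FPKM. The same stretch of sequence, listed under a pair of names, thus had its FPKM divided differently from sample to sample.

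Summed over the records at a locus, the values were steadier. The sum at copy A was 2.57, 1.66 and 2.43 FPKM in the controls, against 0.531, 0.743 and 0.659 FPKM after lyophilization. At the chromosome 5 copy it was 2.35, 1.71 and 2.48 FPKM against 0.560, 0.753 and 0.870 FPKM. The coefficient of variation among the lyophilized samples was 16.6% for the sum at copy A, against 63.9% for LOC100133331 and 173% for LOC100132062 taken singly. On chromosome 5 it was 21.6% for the sum, against 26.7% and 87.7%. The 3 loci then had nearly equal levels, with control means of 2.22 ± 0.492 (copy A), 2.50 ± 0.288 (copy B) and 2.18 ± 0.412 FPKM (chromosome 5; SD, n = 3 each), and log2 differences of -1.63, -1.46 and -1.46. Control 2 was the lowest control at each of the 3 loci. Because the loci share most of their sequence, their values are not 3 separate measurements, and their likeness is no sign that each copy is transcribed.

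**Figure D3:**
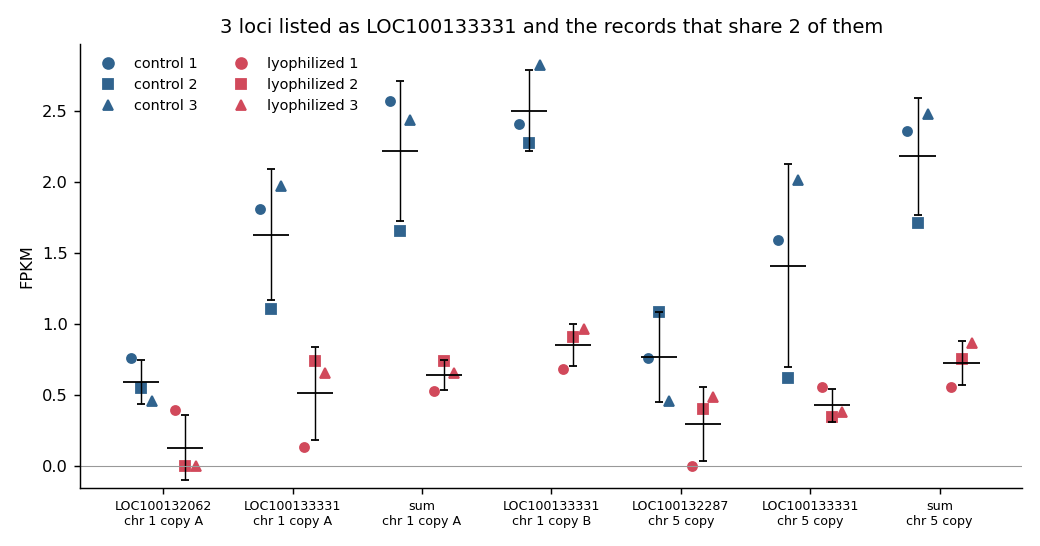
FPKM in each sample (marker shape gives the pair) of the records listed at the 3 LOC100133331 loci and, where 2 records have the same coordinates, of their sum, with bars for the mean and SD of 3 samples. Single records scatter, LOC100132062 falling to 2.06e-05 FPKM in lyophilized sample 3, while the sums at the chromosome 1 and chromosome 5 copies lie near the single record of copy B.

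The ratio of pseudogene to gene was followed for PKD1P1 and PKD1, which were both chosen for their decrease. The PKD1P1 record also covers NPIPA9, so the ratio is not that of the pseudogene alone. The log2 ratio of PKD1P1 to PKD1 was 0.03, 0.27 and 0.20 in the controls, against 0.31, 0.54 and 0.41 after lyophilization. It was higher by 0.26 after lyophilization, with SDs of 0.125 and 0.114 within the groups, and all 3 pairs moved the same way. Among 23 other pairs of a parent gene and a pseudogene above 1 FPKM, with 10 parent genes, the same change lay between -0.91 (STAG3L1 and STAG3) and 0.57 (SLC7A5P1 and SLC7A5). None of the 23 pseudogenes was more than 2-fold lower on the log2 scale, their differences ranging from -0.74 to 0.27 with a median of -0.19. The parents ranged from -0.44 to 0.34 with a median of 0.07. PKD1 and PKD1P1 lay outside both ranges.

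**Figure D4:**
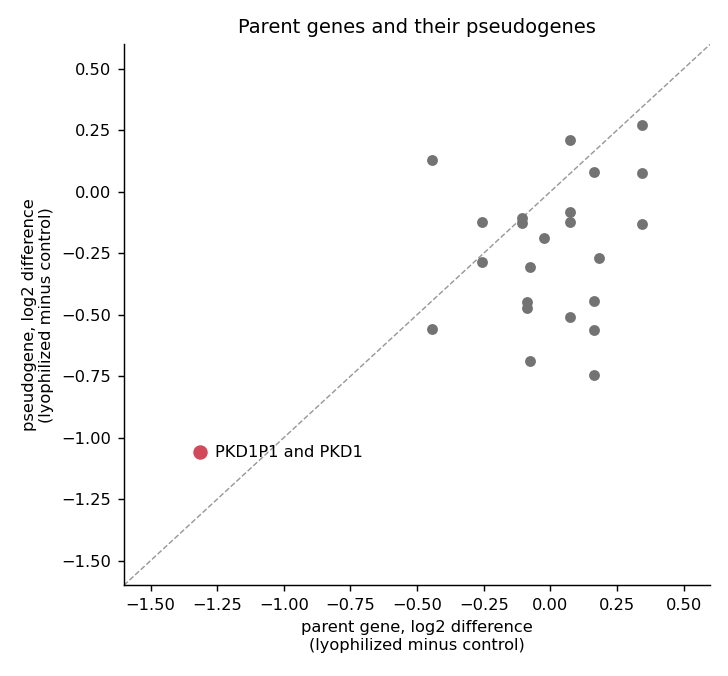
Log2 difference (lyophilized minus control) of each pseudogene against that of its parent gene, for pairs with both above 1 FPKM. The dashed line marks equal values. The PKD1P1 record also covers the gene NPIPA9. PKD1 (-1.31) and PKD1P1 (-1.06) lie apart from the 23 other pairs, in which no pseudogene was under -0.74.

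Other genes of the polycystin pathway were taken from lists set by pathway, with earlier results of these data known. PKD2, which encodes the channel partner of polycystin-1, was at 1.98, 3.78 and 3.70 FPKM in the controls, against 2.33, 3.68 and 3.62 FPKM after lyophilization, a log2 difference of 0.05 ± 0.288 (SE). It was low in both samples of pair 1. The other 6 polycystin genes listed were at or below 0.0974 FPKM in every sample. Of 12 tested genes of polycystic disease and polycystin maturation (glycan trimming, folding and translocation factors of the endoplasmic reticulum, with TSC1 and TSC2), 0 passed limma's adjusted p under 0.05 without the block. With the pair as a block, 4 were lower and 1 higher, beside 14.9% of tested genes lower, and the median log2 difference of the 12 was -0.04. The lower ones were TSC2, PRKCSH (the other glucosidase II subunit, at -0.32), LRP5, a Wnt co-receptor (-0.59 ± 0.0849 SE, adjusted p = 0.00186 with the block by limma), and GANAB, the catalytic glucosidase II subunit (-0.31 ± 0.0547 SE, adjusted p = 0.00440 by limma). The higher one was SEC61B, a subunit of the protein translocation channel (0.22 ± 0.0417 SE, adjusted p = 0.00573 by limma).

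TSC2, which encodes tuberin, an inhibitor of mTOR signalling, is also the nearest neighbour of PKD1. Its record ends at 2138713, 3 bases inside that of PKD1, and the 2 genes are read toward each other. TSC2 was at 8.49, 7.69 and 7.81 FPKM in the controls, against 5.02, 5.17 and 5.37 FPKM after lyophilization, with no overlap. Its log2 difference was -0.61, with a limma adjusted p of 0.0697 without the block (SE 0.112) and 0.00219 with it (SE 0.0924). The sources used here do not say whether counting used strand, so reads at the shared end cannot be told apart. Of the other genes within 100 kb of PKD1, C16orf79 differed by -0.61 with overlapping groups, at 1.53, 2.37 and 2.91 FPKM against 0.997, 1.87 and 1.48 FPKM. MLST8, an mTOR complex subunit, differed by -0.04 ± 0.125 and NTHL1, a DNA repair glycosylase, by 0.02 ± 0.177 on the log2 scale (SE).

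Over all 9 genes, 22 records within 100 kb passed the filter on low values. By limma, 0 of these had an adjusted p under 0.05 without the block. With the block, 9 were lower and 1 higher, beside 14.9% lower and 30.8% in either direction over all tested genes, and the median log2 difference was -0.24. The widest was LOC100288069, a noncoding neighbour of LOC100133331 copy B that shares 24.2% of its stretches with the family and has 69.6% anywhere else in the genome. It was at 0.877, 1.41 and 0.870 FPKM in the controls, against 0.330, 0.341 and 0.287 FPKM after lyophilization (log2 difference -1.43 ± 0.221 SE with the block, limma adjusted p = 0.00236 with it and 0.0827 without). The annotation has a noncoding gene that spans both it and copy B. The higher neighbour was CEP170, a centrosomal protein gene beside LOC731275, at 0.40 ± 0.112 (SE, adjusted p = 0.0252, both with the block by limma). TPST1, a sulfotransferase gene whose annotated span holds the LINC00174 record on the opposite strand, differed by 0.01 ± 0.230 (SE). The TPST1 record with this value ends at 65825438, before that of LINC00174 starts.

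Of 7 other records that share at least 20% of their stretches with the genes, 2 passed the filter on low values, LOC100288069 and NPIP. LOC100132062 and LOC100132287 have the coordinates of LOC100133331 loci, and MIR1225 and MIR4516 lie inside PKD1. The share of 100% in these records follows from their position and shows no further copy. NPIP, which shares 70.5% of its stretches with PKD1P1 or another of the genes, was at 2.93, 3.01 and 3.93 FPKM in the controls, against 1.72, 1.99 and 1.76 FPKM after lyophilization, a log2 difference of -0.81 ± 0.142 (SE with the block, limma adjusted p = 0.00408 with it and 0.0994 without). LOC399744, a chromosome 10 record with 22.2% shared stretches that was too low to be tested, was at 0.594, 0.579 and 0.429 FPKM against 0.153, 0.205 and 0.152 FPKM. In neither record did the groups overlap. Both hold copies of the sequence of the 9 genes, so their values are not separate evidence.

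Genes of further repeated blocks were compared by lists. A list of 30 tested genes of duplicated blocks, most of them pseudogenes, had a median of 50.8% repeated stretches. It also holds NPIP, which shares sequence with PKD1P1, and NPIPL3, both named for the nuclear pore-interacting protein family and not as pseudogenes. Of the 30, 1 (NPIPL3, -0.92 ± 0.134 SE, adjusted p = 0.0384 by limma) was called lower without the block and 11 with it. The shares of all tested genes were 0.557% and 14.9%. None of the 30 had a log2 difference under -1. Their median log2 difference was -0.27. GUSBP9, with the highest repeated share of the list at 97.6%, differed by -0.12, and NCF1C at 87.6% by -0.11. Of 7 tested genes of subtelomeric blocks, 0 were called without the block and 5 lower with it, with a median of -0.46. They include LOC100288069, which shares sequence with the family. Among them the WASH family, copies of a gene for an actin-regulating protein of endosomes, ranged from -0.88 (WASH5P) to -0.38 (WASH2P), and LOC100288069 was the only 1 under -1. Of 25 tested long noncoding RNAs with a median of 0% repeated stretches, 0 were called without the block and 4 lower and 4 higher with it, near the shares over all tested genes, and their median was 0.06. SNHG8, the highest of them in level, differed by 0.16 and MALAT1 by -0.05. NEAT1, a paraspeckle RNA whose record here spans 3735 bases, lay between 49.0 and 67.7 FPKM in the 3 controls. The 3 lyophilized samples lay between 22.2 and 43.0 FPKM, without overlap. NEAT1 differed by -0.79, with a limma adjusted p of 0.219 without the block (SE 0.247) and 8.7e-04 with it (SE 0.0955). LINC00265 (1.78, 1.95 and 2.13 FPKM against 0.609, 0.663 and 0.949 FPKM, with 14.0% repeated) was the only 1 of the list under -1, at -1.31, with a limma adjusted p of 0.0547 without the block (SE 0.220) and 0.00108 with it (SE 0.166). Grouped by repeated share, the listed genes other than the 9 had median log2 differences of -0.04 under 10% (68 genes), -0.19 from 10 to 50% (23 genes) and -0.41 at 50% or more (24 genes), each below -1 in at most 1 gene. Among the 9, LINC00174 at 10.6% and PKD1 at 25.0% repeated were both under -1. The part of repeated sequence in these differences was not tested.

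GC content moved with the difference across the genome. In 10 equal groups of the tested genes by GC content of the locus, the median log2 difference fell from 0.30 in the lowest group (up to 37.6% GC) to -0.21 in the highest (57.7% and above). FLJ45445 (64.1% GC), PKD1 (63.1%), LOC729737 (61.2%), LOC100133161 (61.0%) and LOC100133331 (60.2%) were in the highest group, PKD1P1 (55.1%) in the next, FLJ45340 (50.6%) and LINC00174 (49.7%) in the seventh of 10 and LOC731275 (45.5%) in the sixth. Each was below the median of its own group, the distance being -0.88 in PKD1P1 (13 of 1112 genes of its group lay lower) and -1.73 in LOC731275 (0 of 1112). LOC731275 had the widest difference of the 9 and the lowest GC content of the locus, which includes introns. With the pair as a block and a correction for the GC content of the locus, chosen after seeing the data, the median of the 9 was -1.20. GC content of the annotated transcript was known for only 5 of the 9, too few for that check.

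**Figure D5:**
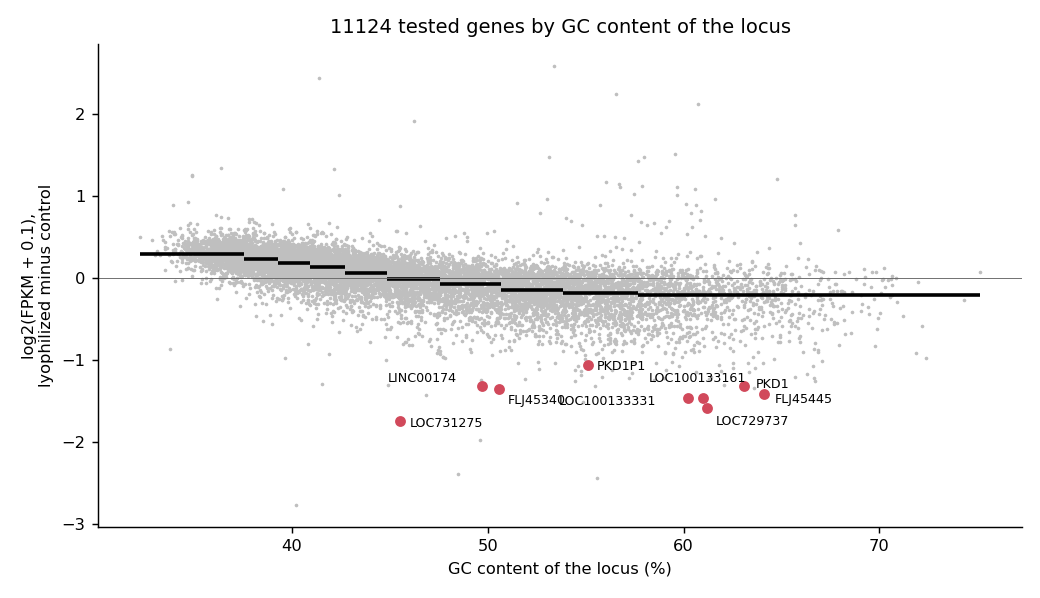
Log2 difference (lyophilized minus control) of the tested genes against the GC content of the locus. Grey points are single genes, black lines the median of each of 10 groups by GC content (0.30 to -0.21), and red points the 9 genes, all of which lie below the line of their group.

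The level in each pair of samples was compared by a test that the choice of genes used only indirectly. In limma's F test of the pair, fitted with the condition over 11131 genes, 5043 (45.3%) had an adjusted p under 0.05. For the 2170 genes in the range of mean levels of the 9 (0.638 to 3.29 FPKM), the share was 26.5% (575 genes). None of the 9 passed, with adjusted p between 0.353 (LOC100133331) and 0.983 (FLJ45445), and 0 of the 9 had an unadjusted p under 0.05, beside 54.3% of all tested genes. The choice of genes used a comparison in which differences between pairs count as error, which favours genes that vary little between pairs, so this count is not independent of the choice, and it does not show that the pairs had equal levels.

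The genes whose values over the 6 samples ran most like those of the 9 were found by Pearson's r, given as a description. The mean log2 profile of the 8 genes other than PKD1 was close to those of LOC100132247, C19orf55, KANSL3 and FBXO46 (r = 0.996 to 0.997 over 6 samples). PKD1 was closest to PARP10, GSK3A, NISCH, MFI2 and RLTPR (r = 0.998 to 0.999). The samples fall into 2 clusters, the controls and the lyophilized ones, and 613 genes reached r above 0.9 with the first profile. Profiles alike in r differed in size, KANSL3 differing by -0.15 and FBXO46 by -0.46 on the log2 scale.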

How the data were processed

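The FPKM values were computed by the authors before deposit: reads of 75 bases were aligned to hg19 (GRCh37) with TopHat2 2.0.7, keeping reads with a single position, and quantified with Cufflinks, after base calling with CASAVA 1.4 per the submitters' processing notes. The Cufflinks version, the gene annotation and the use of strand are not given in the sources used here. Groups and sample numbers were taken from the labels of the 6 samples. Same-numbered samples were taken as pairs, as the study describes them. The 6 tables hold 0 other columns of per-sample values. The record with the highest mean FPKM was kept for each symbol, symbols of small RNAs that lack poly(A) were dropped, and 11131 genes whose mean exceeded 1 FPKM in at least 1 group were tested on log2(FPKM + 0.1) with limma 3.58.1 (R 4.3.3), using its trend option and adjusting p by Benjamini-Hochberg. The main fit had the condition alone, and the alternative also had the pair. Deviations from the group means of same-numbered samples correlated at r = 0.72, 0.60 and 0.48 (other combinations, at most 0.20). Stretches of 75 bases were matched exactly on both strands of GRCh37 (pysam 0.24.0, numpy 2.4.6), and loci were aligned with blastn 2.17.0+. The limma fits and the matching of stretches were tested on simulated data. The tables hold no counts, so no counting interval could be set, and the number of samples limits the precision.

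The 9 genes and the gene lists were chosen with earlier results of these data known. The genes named are the 9, up to 5 genes a list by mean FPKM, records within 100 kb or sharing at least 20% of their stretches, and the 5 closest profiles, 1 of which is not reported here. LRP5, MALAT1, NEAT1, WASH5P, NPIPL3, GUSBP9 and LINC00265, and the pseudogene pairs STAG3L1 and SLC7A5P1, were singled out after their values were seen. Alternatives varied the pseudocount, the filter, the records kept, the scaling, the trend, the pair block, a GC correction, the stretch length and the samples left out.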

Additional observations from a re-analysis of the deposited data

How the results depend on the processing

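For the comparison of lyophilized with control samples, 64 genes had an adjusted p under 0.05 by limma. The count was 0 with no filter on low values (2067 with an unadjusted p under 0.05), and 0 when any 1 of the 6 samples was left out (range 0 to 0). With the pair as a replicate block it was 3424, of which 1657 were lower. The block with a loess correction for the GC content of the transcript gave 1622 (696 lower), and with that of the locus, added after seeing the data, 2196 (950 lower). The median log2 difference of the 9 genes was -1.41. It was -0.82 with a pseudocount of 1, -1.08 with the block and transcript GC correction (5 of the 9 genes only) and -1.20 with the block and locus GC correction, and -1.44 to -1.33 with 1 sample left out. Of 120 recomputed differences of single genes, 19 moved by more than the spread between replicates. The genes were chosen for being lower, and the block, the filter and the records kept cannot move a difference, so the direction being kept in these is no sign of stability. The count of genes that differed among the pairs was 5043, and 2546 with no filter on low values. None of the 9 passed in any of 106 recomputed pair tests. The median share of repeated stretches was 77.7%, and it was 87.3% for stretches of 50 bases and 64.9% for annotated exons only. The tables hold no counts per gene, so no counting error could be set for the lowest values. The cause of these changes was not tested.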

Other observations

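Among the genes closest in profile to the 9, C19orf55 had the widest difference. It was at 3.50, 3.03 and 3.36 FPKM in the controls and at 1.25, 1.58 and 1.55 FPKM in the lyophilized samples, a log2 difference of -1.13, with no overlap of the groups. LOC100132247 was at 13.2, 12.1 and 13.1 FPKM against 6.38, 6.84 and 7.09 FPKM (-0.91). NISCH, whose product binds integrins, was at 11.5, 10.2 and 11.0 FPKM against 7.12, 7.19 and 7.03 FPKM (-0.61), the second of the controls being the lowest, as it was for PKD1.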
